A study of Mus musculus with 4 samples.

Results

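Oocyte transcription factors are nuclear proteins that drive the gene programme of the growing oocyte, and 8 of their genes were examined among the 17374 genes of the deposited table: Figla, Nobox, Lhx8, Sohlh1, Sohlh2, Taf4b, Tbpl2 and Gata4. They were chosen by symbol through their NCBI gene IDs, and all 8 were listed and passed the filter on low counts. The RNA came from oocytes at the germinal vesicle stage, in which meiosis is arrested and the nucleus is intact, taken from females at postnatal day 16. There were 2 control libraries that were not irradiated and 2 libraries of oocytes given 5 Gy of γ-irradiation in culture and collected 24 h later. Per the study's methods the mice were F1 hybrids of C57BL/6 and DBA2J, and all oocytes were kept in medium with milrinone, which holds meiotic arrest. Cumulus cells were removed by pipetting and the zona pellucida by Tyrode's solution, and 59 oocytes were used for each condition, so that each library is a pool of cells. In such bulk samples, fewer cells of a type and less RNA per cell cannot be told apart. The study describes 2 independent experimental replicates.

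As background, FIGLA, SOHLH1 and SOHLH2 are basic helix-loop-helix proteins that bind E-box sequences as dimers, and NOBOX and LHX8 are homeodomain proteins. SOHLH1 and SOHLH2 act early in follicle formation, while FIGLA and NOBOX are known for activating genes of the zona pellucida and of oocyte growth. TAF4B and TBPL2 are germ cell forms of subunits of the general transcription machinery, and GATA4 is a zinc finger factor best known in the ovary from granulosa cells.

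The coordinates of the genes are those of GRCm38.p6. On chromosome 6 are Figla (chr6:86016494-86020996) and Nobox (chr6:43303674-43310072). On chromosome 3 are Lhx8 (chr3:154306288-154330560) and Sohlh2 (chr3:55182044-55209957). Sohlh1 (chr2:25842995-25847248) and Tbpl2 (chr2:24071366-24096595) share chromosome 2, and Gata4 (chr14:63198914-63271712) is on chromosome 14. RefSeq promoter windows of 300 bases were at hand for 6 of the 8 genes, all but Taf4b and Gata4. The windows were searched on both strands for CANNTG, the E-box bound by the helix-loop-helix members. They were also searched for TAATTG, an element bound by NOBOX, and for TGATTG, an element bound by LHX8. The last motifs were AGATAA for GATA factors and TATAAA, the TATA box bound by TBP. An E-box occurred in 5 of the 6 windows, beside 72.3% of the 32851 windows of the reference. The 6 windows held 17 E-boxes in all, where the mean over the reference was 1.39 per window. The 3 upstream sequences below show the extremes of this count, from 5 E-boxes in Sohlh1 and in Tbpl2 to 0 in Lhx8. Each gives the 250 bases before the annotated start, 5′ to 3′ on the strand of the gene, with matches in capitals.
Sohlh1 (chr2:25847249-25847498, minus strand): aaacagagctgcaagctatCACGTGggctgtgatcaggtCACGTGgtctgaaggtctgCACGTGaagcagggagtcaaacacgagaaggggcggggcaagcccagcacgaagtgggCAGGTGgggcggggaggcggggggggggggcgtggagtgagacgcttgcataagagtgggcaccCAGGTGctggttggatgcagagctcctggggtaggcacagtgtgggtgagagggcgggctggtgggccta
Tbpl2 (chr2:24096596-24096845, minus strand): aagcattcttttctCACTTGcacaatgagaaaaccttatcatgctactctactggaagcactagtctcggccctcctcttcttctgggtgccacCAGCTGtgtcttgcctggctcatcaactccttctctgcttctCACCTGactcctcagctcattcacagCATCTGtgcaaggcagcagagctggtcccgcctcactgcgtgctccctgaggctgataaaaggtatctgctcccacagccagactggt
Lhx8 (chr3:154330561-154330810, minus strand): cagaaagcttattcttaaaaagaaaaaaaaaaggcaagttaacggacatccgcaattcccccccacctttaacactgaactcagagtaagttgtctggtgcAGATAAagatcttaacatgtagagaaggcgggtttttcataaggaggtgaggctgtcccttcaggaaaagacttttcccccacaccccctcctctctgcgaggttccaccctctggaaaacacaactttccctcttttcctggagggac

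**Figure D1:**
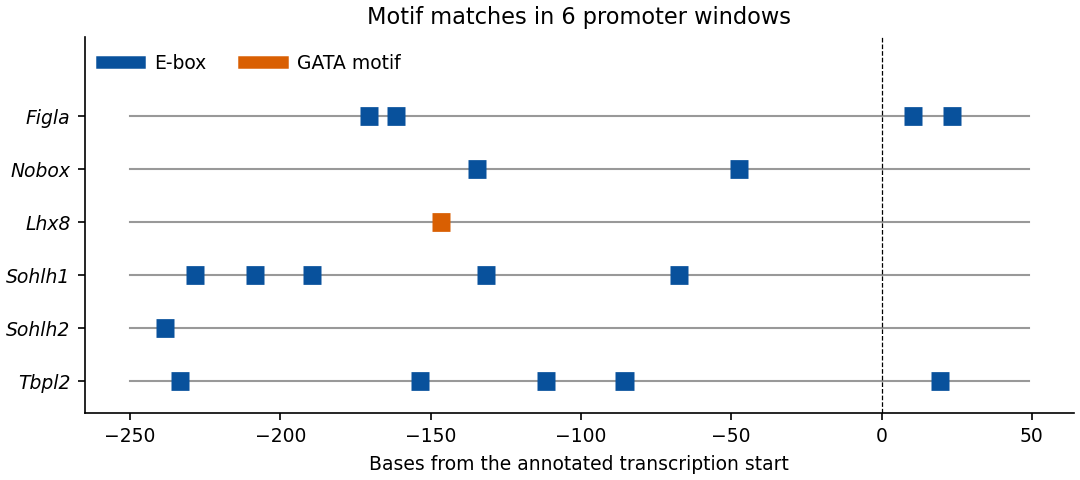
Motif matches along 6 promoter windows; the x axis gives bases from the annotated transcription start, blue squares are E-boxes and the orange square is the GATA motif. Sohlh1 and Tbpl2 have 5 E-boxes each, Figla has 4, and Lhx8 has no E-box.

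The Sohlh1 window holds the palindrome CACGTG 3 times, the first at bases -231 to -226. The fifth E-box of Tbpl2 and the last pair of Figla lie downstream of the start and are not in the printed stretches. Figla had 4 E-boxes, Nobox 2 and Sohlh2 1. The GATA motif was found once, in Lhx8 at bases -149 to -144, and occurs in 11.2% of all windows. The NOBOX and LHX8 elements (8% and 14% of all windows) and the TATA box (13.6%) were not found in any of the 6 windows. These matches are letters in a window and say nothing of binding in these oocytes.

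Levels were compared between genes as TPM, a scaled level corrected for transcript length, summed over the transcripts of a gene. Nobox was the most abundant factor, with 397.7 and 439.7 TPM in control libraries 1 and 2, 467.8 in irradiated library 1 and 1215 in irradiated library 2. Figla followed at 178.1 and 180.2 TPM in control oocytes and 159.2 and 166.1 in irradiated oocytes. Lhx8 stood at 52.79, 63.12, 65.24 and 85.26 TPM in the same order of libraries. The oocyte-specific TBP relative Tbpl2 came next, at 24.79 and 25.73 TPM in control oocytes and 23.06 and 43.17 in irradiated ones. The ranges of these 4 genes over the 4 libraries did not overlap with one another or with that of Taf4b.

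The other 4 genes lay near or below 3 TPM. Taf4b had 2.11, 2.41, 1.79 and 2.76 TPM, and Sohlh1 had 1.63, 1.45, 1.86 and 2.68 TPM. Gata4 had 0.81, 1.08, 0.82 and 1.54 TPM, and Sohlh2 was lowest at 0.46, 0.74, 0.61 and 1.06 TPM. Over the 4 libraries the range of Taf4b overlapped that of Sohlh1, Sohlh1 overlapped Gata4 and Gata4 overlapped Sohlh2. Within each library, however, Sohlh1 lay above Gata4 and Gata4 above Sohlh2. Taf4b lay above Sohlh1 in all but irradiated library 1. Taf4b lay above Gata4 and Sohlh2 in every library, without overlap, and Sohlh1 above Sohlh2. Between Tbpl2 and Taf4b lay the widest gap, an 11.2-fold difference of control means. By its mean of 418.7 ± 29.7 TPM in control oocytes (SD, n = 2), Nobox held rank 359 from the top among all listed genes, and Sohlh2 held rank 10190. The order of the 8 genes by mean TPM was the same in irradiated oocytes, although Taf4b and Sohlh1 were nearly equal there (means of 2.275 and 2.27 TPM).

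**Figure D2:**
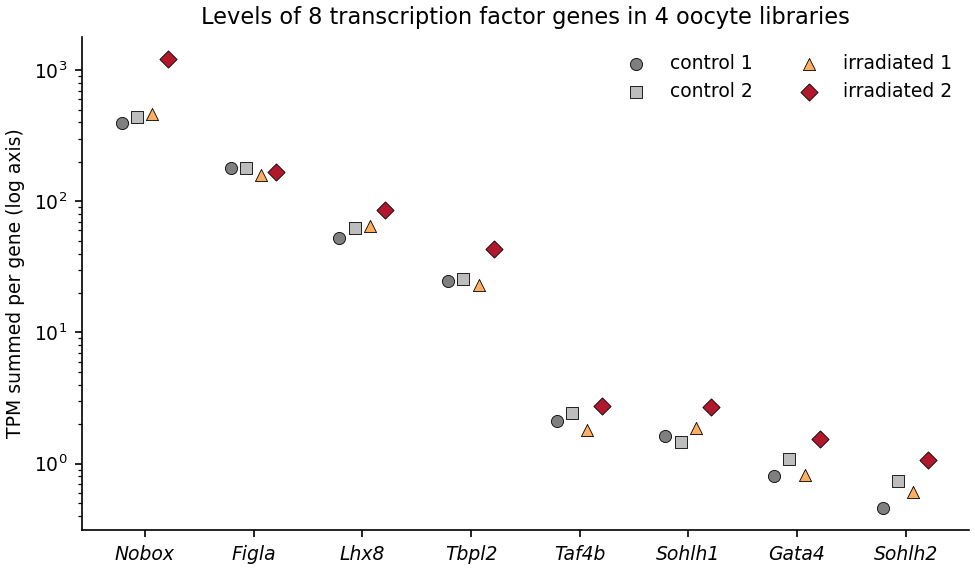
TPM summed per gene on a log axis for 8 genes in each of 4 libraries (grey, control; orange and red, irradiated). Nobox, Figla, Lhx8 and Tbpl2 sit above 20 TPM in every library and the other 4 genes below 3 TPM.

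Irradiated library 2 stood apart from the other 3 over all genes. In it, 307 of 9435 well-covered genes (3.25%) lay more than 1 log2 unit outside the range of the other libraries, against 3 genes for each of the others. Its TMM factor, which corrects for differences in composition, was 1.19 against 0.923 to 0.975. By TPM, 74.7% of all tested genes were highest in this library, as were 7 of the 8 factors. By normalized count, the estimated count of a gene scaled with TMM, the share was 38.2% and 5 of 8 factors were highest there. Changes are therefore given as normalized counts, with the log2 fold change from all 4 libraries and without irradiated library 2, and the part of this library's difference in them was not tested beyond that. Totals of estimated counts were 33349466 to 37232818 per library, and the oocyte markers Ddx4, Dazl, Zp3, Gdf9, Bmp15, Npm2, Zar1, Oosp1, Padi6 and Kit summed to between 26341 and 29707 TPM. This sum is led by Zp3, at 10914 to 11773 TPM in the first 3 libraries and 15620 in irradiated library 2. By normalized count 8 of the 10 markers were lowest in irradiated library 2, with Npm2 at 1765 TPM against 3730 to 4004 in the others and Oosp1 at 1038 against 2200 to 2498.

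None of the 8 genes passed the limits between conditions, a log2 fold change beyond 2 in size together with an adjusted p below 0.05, where 0.00796% of the 12569 tested genes did (Benjamini-Hochberg adjusted quasi-likelihood test of edgeR). With an unadjusted p below 0.05 in that edgeR fit were 0 of the 8, beside 5.92% of all genes. By both limits, DESeq2 and limma-voom also called 0 of the 8. DESeq2 gave 1 of the 8 an unadjusted p below 0.05, beside 436 of all 17374 genes. The irradiated libraries did not overlap the control libraries for 5 genes, higher for Nobox, Lhx8 and Sohlh1 and lower for Figla and Taf4b, while 41.9% of all tested genes were separated in this way. A gene total that misses the limits is not shown to be equal, so 95% intervals of the change are given for each gene.

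**Figure D3:**
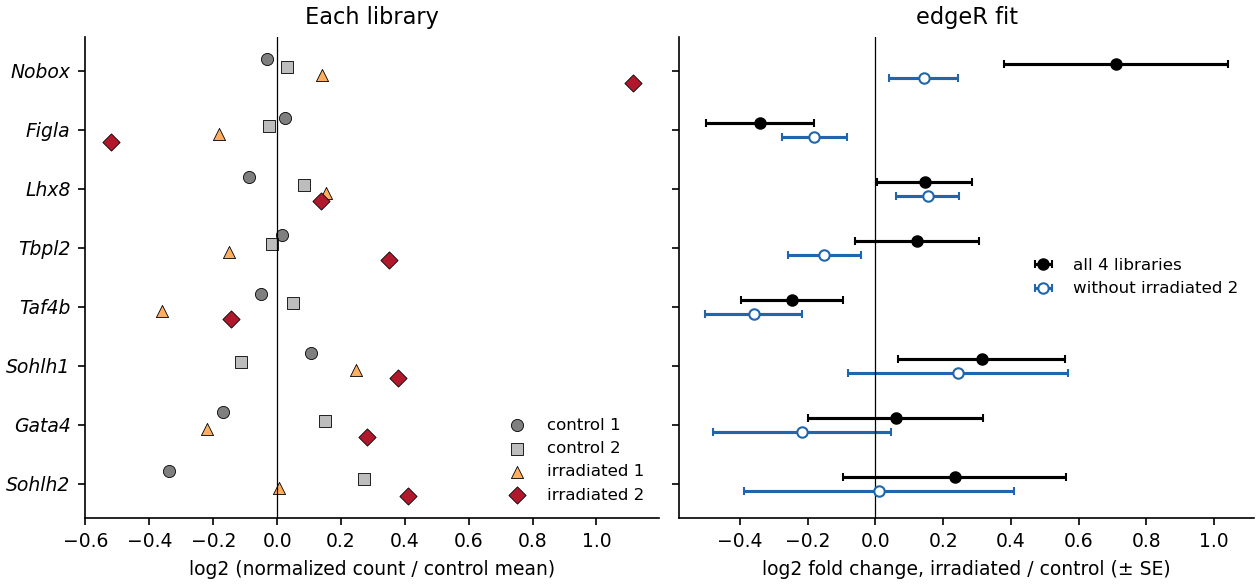
Left, log2 of each library's normalized count over the control mean; right, edgeR's log2 fold change with its SE from all 4 libraries (black) and without irradiated library 2 (blue). Nobox moves from 0.71 to 0.14 when irradiated library 2 is left out.

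Among the helix-loop-helix factors, Figla, the activator of the zona pellucida genes, had normalized counts of 2852 and 2754 in control oocytes and 2473 and 1956 in irradiated oocytes. Both irradiated libraries were below both controls, irradiated library 2 furthest. The log2 fold change was -0.34 ± 0.16 (SE), with a 95% interval from -0.72 to 0.04 and an adjusted p of 0.708 (Benjamini-Hochberg adjusted quasi-likelihood test of edgeR). Without irradiated library 2 it was -0.18 ± 0.10. By normalized count, Figla was the only member that was lowest in irradiated library 2. By TPM it was at 166.1 there, above the 159.2 of irradiated library 1.

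Sohlh1, an early germ cell regulator, had normalized counts of 49.2 and 42.3 in control oocytes and 54.2 and 59.4 in irradiated oocytes. The groups did not overlap, but the counts behind them were low, 39 to 69 per library, and the exact Poisson 95% intervals of the lowest and the highest (27.7 to 53.3 and 53.7 to 87.3) were wide and cover counting error only. The log2 fold change was 0.31 ± 0.25, with an interval from -0.27 to 0.90, and 0.24 ± 0.32 without irradiated library 2. Its partner Sohlh2 had 27.7, 42.3, 35.1 and 46.5 normalized counts, with overlapping conditions. The 2 control libraries alone differed 1.53-fold for Sohlh2, more than the 1.33-fold between irradiated library 2 and the control mean. Its log2 fold change was 0.23 ± 0.33, and 0.01 without irradiated library 2.

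Of the homeodomain factors, Nobox, which activates many genes of the growing oocyte, had normalized counts of 19123 and 19930 in control oocytes, 21540 in irradiated library 1 and 42314 in irradiated library 2. The control libraries were within 1.04-fold of each other, irradiated library 1 was 1.10-fold above their mean and irradiated library 2 was 2.17-fold above it. A ratio of that size or more in irradiated library 2 was found for 327 of all tested genes (2.6%). The log2 fold change of Nobox was the largest of the 8 in size, 0.71 ± 0.33, with a 95% interval from -0.07 to 1.49 and an adjusted p of 0.708 (Benjamini-Hochberg adjusted quasi-likelihood test of edgeR). Without irradiated library 2 it was 0.14 ± 0.10 with an adjusted p of 0.677 by the same test, so that the size of the difference rested on that library. Nobox made up 60.4% to 64.9% of the summed TPM of the 8 genes in the first 3 libraries and 80.1% in irradiated library 2.

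Lhx8, a LIM homeodomain factor, gave the narrowest interval of the 8. Its normalized counts were 2656 and 2989 in control oocytes and 3139 and 3104 in irradiated oocytes, where irradiated library 2 was at 0.989 of irradiated library 1. The log2 fold change was 0.15 ± 0.14, with an interval from -0.19 to 0.48, and it was 0.15 ± 0.09 without irradiated library 2. The estimate was thus much the same with and without the library that stood apart.

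Taf4b (chr18:14783201-14960424) encodes a germ cell relative of the TFIID subunit TAF4. It had normalized counts of 397 and 425 in control oocytes and 320 and 372 in irradiated oocytes. Both irradiated libraries lay under both controls, with a log2 fold change of -0.25 ± 0.15 and an interval from -0.61 to 0.11. This separation depended on the scaling, since by TPM and by unscaled count irradiated library 2 was the highest library. The log2 fold change was -0.075 with library size alone as the scaling and -0.0078 on log2(TPM + 1). With irradiated library 2 left out, the log2 fold change was -0.36 ± 0.14, with an unadjusted p of 0.0121 and an adjusted p of 0.291 (Benjamini-Hochberg adjusted quasi-likelihood test of edgeR). It was then the only member with an unadjusted p under 0.05, beside 10% of all 12761 genes tested in that fit.

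Tbpl2, the TBP relative that takes the place of TBP in growing oocytes, had normalized counts of 1074 and 1051 in control oocytes and 957 and 1355 in irradiated oocytes. Irradiated library 1 lay below and irradiated library 2 above both controls, and the log2 fold change of 0.12 ± 0.18 became -0.15 ± 0.11 without irradiated library 2. Gata4 had 73.8, 92.1, 71.3 and 101 normalized counts, with overlapping conditions. Its log2 fold change of 0.06 ± 0.26 became -0.22 ± 0.26 without irradiated library 2.

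Gata4 was set beside the markers of granulosa and cumulus cells, since these cells are known to express it. Of 15 such markers, 11 were listed, and their TPM summed to 17.24 and 19.44 in control oocytes and to 17.23 and 22.7 in irradiated oocytes. Gja1, Inhbb, Hsd17b1, Inhba and Nr5a1 were at 0.09 TPM or below in every library, and Inha and Wnt4 at 0.48 TPM or below. Cyp19a1, the aromatase, reached 8.79 to 10.23 TPM and Fshr, the FSH receptor, 1.66 to 2.89 TPM. Nr5a2, an orphan nuclear receptor, was at 3.53 to 7.43 TPM. By TPM, Nr5a2, Cyp19a1, Fshr and Gata4 were all highest in irradiated library 2, as were 74.7% of all tested genes. Of the 5 markers tested, 0 had an unadjusted p under 0.05. The smallest was that of Kitl, which encodes the KIT ligand, at 0.0518, with normalized counts of 228 and 235 in control oocytes and 191 and 148 in irradiated oocytes. The conditions did not overlap for Kitl, as for 41.9% of all tested genes. Its log2 fold change was -0.45 ± 0.19, or -0.27 ± 0.18 without irradiated library 2. Foxl2, Amh, Amhr2 and Fst were not among the listed genes, and the part of granulosa cells in the level of Gata4 was not tested. Among the other GATA factors, Gata3 was higher than Gata4, at 6.34 to 9.19 TPM, and Gata6 at 1.56 to 2.54 TPM and Gata1 at 1.09 to 2.01 TPM were also listed.

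The division of reads among transcripts was examined next, since 7 of the 8 genes have 2 listed transcripts, 15 in all. Estimated counts of a transcript carry the error of sharing reads out among near-identical sequences, whereas the 32 totals of these genes were within 0.05 of a whole number. Of the 12 transcripts tested, 0 passed both limits, as for 0% of all 26645 transcripts (edgeR; 1306 of all had an unadjusted p under 0.05, 4.9%). DESeq2 called 1 transcript of these genes, in Taf4b, beside 248 of all 45505 transcripts.

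**Figure D4:**
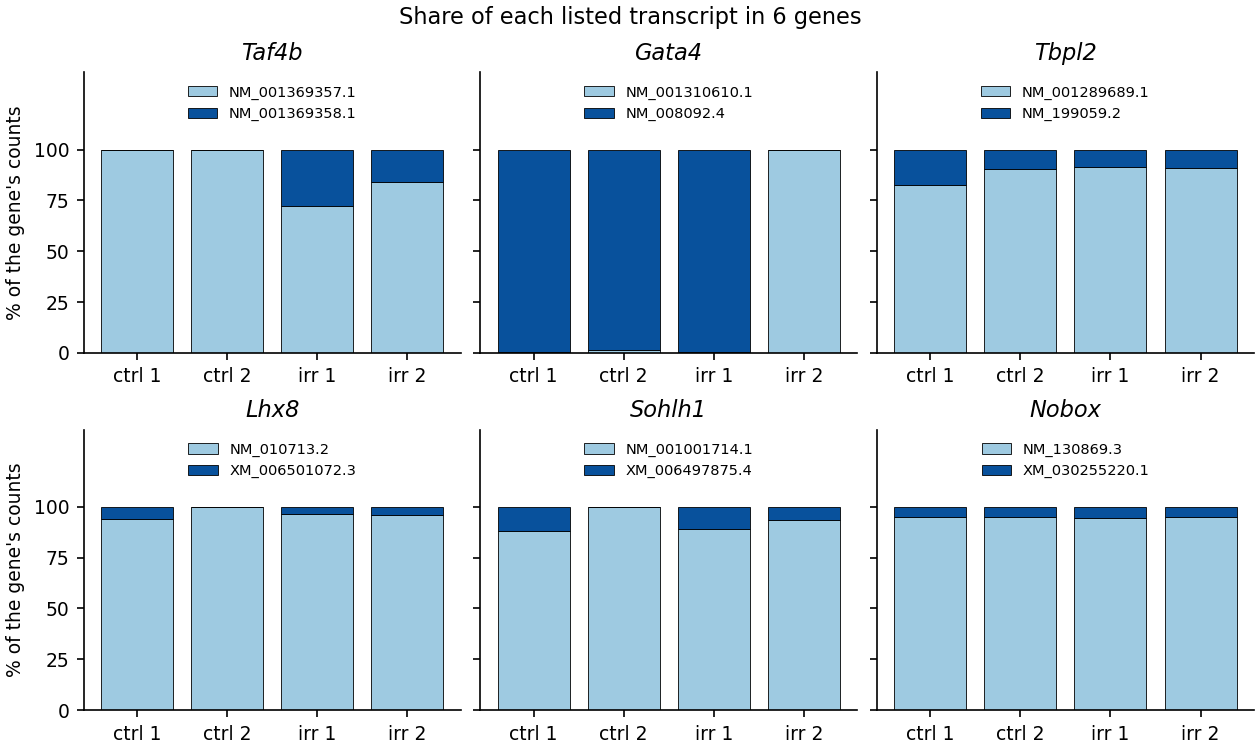
Percent of a gene's estimated counts assigned to each of 2 RefSeq transcripts in 6 genes and 4 libraries (ctrl, control; irr, irradiated). Taf4b NM_001369358.1 is at 0% in both controls and at 27.6% and 16% in the irradiated libraries, and Gata4 changes transcript in irradiated library 2.

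For Taf4b, all reads went to NM_001369357.1 in both control libraries, 387 and 392 counts, and 217.8 and 363 counts in the irradiated libraries. NM_001369358.1 was at 0 counts in both controls and at 83.19 and 68.98 counts in irradiated libraries 1 and 2, which is 27.6% and 16% of the gene. Against a floor of 3 counts per library it was at least 25.4-fold higher in the mean of the irradiated libraries. Its p was 0.00329 and its adjusted p 0.777 by the Benjamini-Hochberg adjusted quasi-likelihood test of edgeR, while DESeq2 gave an adjusted p of 0.00204 and limma-voom 0.839. As a change of isoform usage, in which each transcript is compared with the rest of its gene, Taf4b had a p of 0.000793 and an adjusted p of 0.124 (edgeR's diffSpliceDGE with Simes' method and Benjamini-Hochberg adjustment), and 0.253% of the 6323 genes tested passed 0.05. Leaving out irradiated library 2 gave an adjusted p of 0.438 by the same test. The Taf4b difference in transcripts thus appeared in both irradiated libraries but passed the adjusted limit only with some tests.

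For Gata4, irradiated library 2 differed from all others. NM_008092.4 held 71.82 and 83.98 counts in control oocytes and 66.63 in irradiated library 1, and 0 in irradiated library 2, where all 117 counts were assigned to NM_001310610.1. NM_001310610.1 had 0.16, 1.02 and 0.32 counts in the other libraries. In GENCODE M21, on GRCm38, the transcripts differ by 23 bases at the 5′ end and by 3 bases at the start of exon 3 of 7 (chr14:63204589-63204758, minus strand), which lies in the coding sequence. The coding length is 1326 bases with these 3 bases and 1323 without. The junction of exons 2 and 3 is shown because it is where the coding sequences differ, with the 3 bases in capitals; the reading frame runs through them, since exon 2 ends 1 base into a codon.
NM_001310610.1: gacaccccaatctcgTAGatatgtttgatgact
NM_008092.4: gacaccccaatctcgatatgtttgatgact

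Irradiated library 2 alone held more than 1.02 counts of the longer form, and irradiated library 1 was like the controls, so the difference followed a library and not the condition. Isoform usage of Gata4 was not tested, since only 1 of its transcripts passed the filter.

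The other genes kept their main transcript. Nobox NM_130869.3 took 94.6% to 95.2% of the counts in every library, and Figla NM_012013.2 took 99.77% to 99.92%. Lhx8 NM_010713.2 took 94.2% to 100%, and Sohlh1 NM_001001714.1 took 88% to 100%, with XM_006497875.4 at 0 counts in control library 2 and 4.32 to 5.74 counts in the others. Tbpl2 NM_001289689.1 took 82.8% in control library 1 and 90.3% to 91.7% in the other 3. Nobox, Lhx8 and Tbpl2 had an adjusted p of 1 for isoform usage (diffSpliceDGE, Simes' method with Benjamini-Hochberg adjustment).

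Genes that work with these factors were read from the same fit, and each log2 fold change is followed by its value without irradiated library 2. Of 22 partners and paralogs, 21 were listed and 15 tested, and 0 had an unadjusted p under 0.05. Their median log2 fold change was -0.09 (-0.06 without irradiated library 2). The median of the 8 factors was 0.13 and turned to -0.07 without that library, with 4 genes above 0 and 4 below, where the median of all tested genes was 0.01 and 0.00. Tcf3 and Tcf12 encode E proteins, the dimer partners of the helix-loop-helix factors. Tcf3 had 186, 168, 222 and 187 normalized counts, with a log2 fold change of 0.21 ± 0.18 (0.33). Tcf12 had 176, 221, 192 and 177, with -0.10 ± 0.19 (-0.04). Tbp, the ubiquitous relative of Tbpl2, stood at 69.2 to 106 TPM, above Tbpl2 in every library, and its log2 fold change was 0.03 ± 0.14 (-0.06). The other TBP relative, Tbpl1, had 304, 269, 301 and 404 normalized counts and a log2 fold change of 0.30 ± 0.19 (0.07), so that its size rested on irradiated library 2. Taf4, at 1.96 to 2.73 TPM, was close to its relative Taf4b, and its log2 fold change was -0.07 ± 0.17 (-0.11). Id1 and Id2 encode inhibitors that bind E proteins, with log2 fold changes of 0.71 ± 0.63 (0.47) on 3 to 15 counts per library and -0.29 ± 0.25 (-0.06). Gata1 had -0.50 ± 0.28 (-0.59), the LIM cofactor gene Ldb2 had -0.24 ± 0.27 (-0.56) and Gata6 had -0.17 ± 0.21 (-0.33). For Gata1, Ldb2 and Gata6 the change was larger in size without irradiated library 2, in a fit that rests on 1 irradiated library. Lhx9, a relative of Lhx8, had 2, 1, 1 and 7 counts and was not tested.

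The general factors read here were subunits of TFIID and TFIIA together with Gtf2b, which encodes TFIIB. Of 18 genes, 17 were listed and tested, and 1 had an unadjusted p under 0.05, beside 5.92% of all genes. This was Taf6, with a p of 0.0427, with normalized counts of 742 and 787 in control oocytes and 876 and 1153 in irradiated oocytes and a log2 fold change of 0.41 ± 0.17 (0.20 without irradiated library 2). Its adjusted p was 0.708 (Benjamini-Hochberg adjusted quasi-likelihood test of edgeR). The median of these general factors was -0.13, and -0.06 without irradiated library 2. Gtf2a1l, a germ cell form of a TFIIA subunit, had a log2 fold change of 0.25 ± 0.20, which turned to -0.07 without irradiated library 2, and Taf10 had 0.24 ± 0.16 (0.18). Gtf2a2, Taf1 and Taf9 had -0.29 ± 0.16 (-0.15), -0.33 ± 0.23 (-0.06) and -0.31 ± 0.22 (-0.09).

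Among 16 known target genes of the factors, all were tested and 1 had an unadjusted p under 0.05, a share close to the 5.92% of all genes. The median was -0.23, against 0.02 without irradiated library 2. The gene with that p was Pou5f1, which encodes OCT4 and is a target of NOBOX. It had 191 and 172 normalized counts in control oocytes and 206 and 542 in irradiated oocytes. Its log2 fold change was 1.05 ± 0.41 with an unadjusted p of 0.0372 and an adjusted p of 0.708 (Benjamini-Hochberg adjusted quasi-likelihood test of edgeR), and it was 0.18 ± 0.19 without irradiated library 2. Irradiated library 2 was the highest for Pou5f1, as it was for Nobox and for 38.2% of all tested genes. Most of the listed targets, 12 of the 16, were lowest there instead. The zona pellucida gene Zp1 had 48228, 59469, 54863 and 91082 normalized counts, with a log2 fold change of 0.44 ± 0.32, or 0.03 without irradiated library 2. Zp2 had 234037, 226438, 211923 and 74595, with -0.68 ± 0.50, or -0.12 without that library. Zp3 had 345766, 352694, 351429 and 359806, with 0.03 ± 0.35, or 0.01 without it. By normalized count, irradiated library 2 was thus lowest for Figla and Zp2 and highest for Zp1 and Zp3. Zp3 differed little between libraries, and a link between these genes was not tested. Zar1, a maternal factor, had 0.25 ± 0.18 (0.30 without irradiated library 2). Kit, Dnmt1 and Rspo2 had -0.29 ± 0.17, -0.64 ± 0.39 and -0.48 ± 0.25, and -0.13, -0.14 and -0.15 without that library. In 12 of the 16 targets irradiated library 2 was the lowest library, and in 3 the highest; over all tested genes it was lowest in 35.4%.

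**Figure D5:**
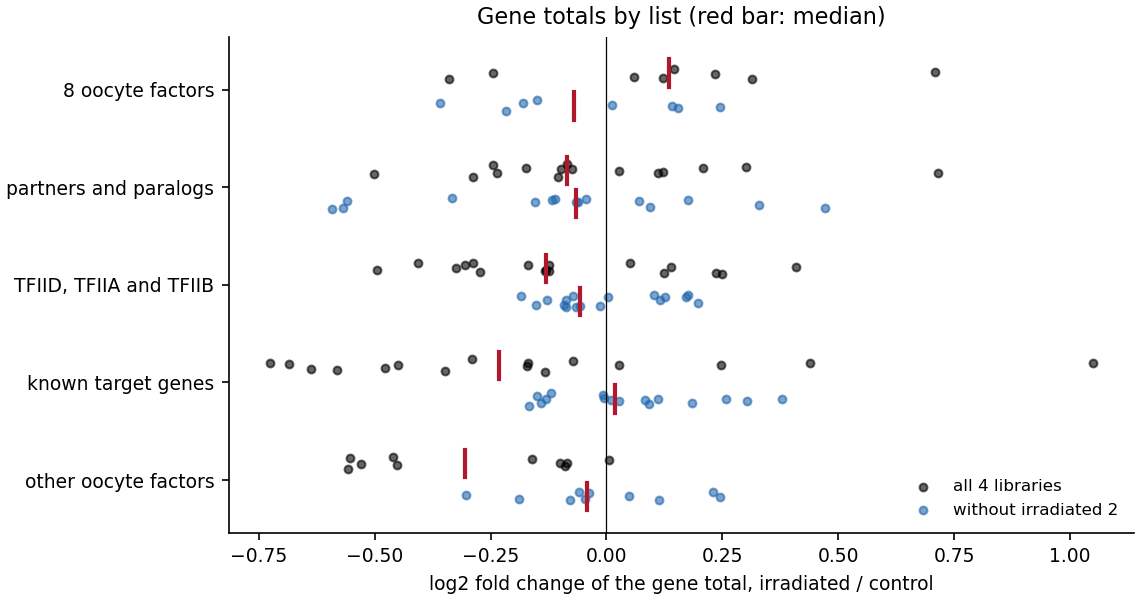
edgeR's log2 fold change of the gene total (x axis) for each tested gene of 5 lists, from all 4 libraries (black) and without irradiated library 2 (blue), with the median as a red bar. The medians of target genes and of other oocyte factors lie at -0.23 and -0.31 with all libraries and at 0.02 and -0.04 without irradiated library 2.

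Other oocyte factors had 10 of 11 listed genes tested, and 0 had an unadjusted p under 0.05. Their median was -0.31, and -0.04 without irradiated library 2, in which 8 of the 10 were lowest. Stat3 had 589, 635, 633 and 596 normalized counts, with a log2 fold change of 0.00 ± 0.13 (0.05 without irradiated library 2). Sub1, Dynll1 and the homeobox gene Obox1 had -0.46 ± 0.31, -0.45 ± 0.33 and -0.53 ± 0.40, with irradiated library 2 the lowest in each, and -0.19, -0.04 and -0.06 without it.

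The gene nearest in pattern to each factor was found from log2 CPM, counts scaled to library size, centred over the 4 libraries, as the smallest root mean square difference. It was Fndc3a for Figla (0.00891), Zfp575 for Nobox (0.0193), Ankrd13a for Lhx8 (0.00502), Niban3 for Sohlh1 (0.0128), Stab2 for Sohlh2 (0.0109), Gipr for Taf4b (0.0143), Asf1a for Tbpl2 (0.00988) and Prdx4 for Gata4 (0.0128). With 4 libraries such matches are common, and 118 to 1336 genes lay within 0.1 of a factor. Among the 8 themselves, Tbpl2 and Gata4 were the nearest pair, at 0.125.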

How the data were processed

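RNA-seq of 4 oocyte libraries was analysed, 2 per condition, grouped by the sample titles. The authors aligned paired reads of 100 bases to GRCm38 with Bowtie2, and the submitters' processing notes also name HISAT2 and RSEM. The authors deposited an estimated count for each of 45505 RefSeq transcripts in each library, not scaled for library size. The authors also deposited TPM values, which are corrected for transcript length and scaled to a common total. A further 10 columns (4 of FPKM values, 6 of averages) were not used. Symbols were matched by gene ID to RefSeq (GRCm38.p6) for 17323 of 17374 genes.

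Estimated counts were summed per gene and rounded. Tests used edgeR 4.0.16 under R 4.3.3: low counts were removed by filterByExpr (minimum count 10), libraries were scaled by TMM, and glmQLFTest followed glmQLFit without a block. Benjamini-Hochberg adjustment ran over all features tested. The SE of a log2 fold change is its size divided by the root of the F statistic. Calls required both a log2 fold change beyond 2 in size and an adjusted p below 0.05. Isoform usage was tested with diffSpliceDGE. Alternatives used DESeq2 1.42.0, limma 3.58.1 (voom, and log2(TPM + 1) with a pseudocount of 1), other scalings and filters, NM_ transcripts only, the replicate number as a block, and each library left out in turn. The floor was 3 counts. On simulated data with 200 features changed by 3 log2 units, edgeR recovered 100% of the changed genes among 12569 gene totals and 86% of the changed transcripts among 26645, and the isoform test recovered 57.5% of the changed genes among 5642.

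The 8 genes and the gene lists were chosen with earlier results of these data known. Beyond the 8 genes, the text names from each of the lists of partners, general factors, targets and other oocyte factors the up to 3 genes above 0 and 3 below 0 with the smallest unadjusted p, the direct partners and relatives Tcf3, Tcf12, Tbp, Taf4, Gata6 and Lhx9, and the gene nearest in pattern to each factor. Naming Gata3, Zp2, Zp3, Kitl and Nr5a2 was decided after seeing their values, and marker genes come from fixed lists. Promoter sequences are from RefSeq and exon positions from GENCODE M21. Depth was similar in all libraries, so counts limit precision mainly for Sohlh1, Sohlh2 and Gata4.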

Additional observations from a re-analysis of the deposited data

How the results depend on the processing

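None of the 8 factors passed both limits under any alternative. The sign of the change held under all 12 alternatives for Figla, Nobox, Lhx8, Sohlh1 and Taf4b. For Taf4b the log2 fold change shrank to -0.075 with library size alone and to -0.0078 on log2(TPM + 1). With 1 library left out in turn, where the lone library is assumed to vary like the others, the log2 fold change of Sohlh2 ran from -0.050 (without control library 1) to 0.56, that of Tbpl2 from -0.15 (without irradiated library 2) to 0.34, and that of Gata4 from -0.22 (without irradiated library 2) to 0.27, with -0.10 without control library 1. Leaving out irradiated library 1 set irradiated library 2 alone against the controls. The log2 fold changes were then 1.10 for Nobox, -0.53 for Figla and 0.34 for Tbpl2. A p-value from 1 irradiated library does not measure the spread between irradiated libraries, so none is given for that fit. With all 4 libraries and no block, these genes had adjusted p values of 0.673 or more in the edgeR, DESeq2 and limma tests. Library size alone as the scaling moved the median log2 fold change of all genes to 0.17.

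Over all genes, the number past both limits was 1, and it was 0 with library size alone, limma-voom, TPM or NM_ transcripts only, 3 without a filter, 4 with DESeq2 and 16 to 84 with 1 library left out. Transcripts past both limits numbered 248 with DESeq2 against 0. Genes with changed isoform usage numbered 16, and 58 with a gene-level F test, 27 with a minimum count of 30 and 1 to 29 with 1 library left out. Taf4b had an adjusted p of 0.0453 for isoform usage in that F test, 0.082 at the stricter minimum, 0.371 to 0.654 with 1 library left out and 0.898 with the replicate block (diffSpliceDGE with Benjamini-Hochberg adjustment). The replicate block gave 7 gene totals and 3 genes with changed isoform usage, and called none of the 8 factors. Nothing in the labels says that a number marks a shared batch, and there would be only 2 pairs. Deviations of same-numbered libraries correlated at 0.225 over 9435 genes, which does not settle whether the numbers mark pairs. The main fit was therefore run without a block, and the block fit is given as an alternative. The cause of these differences was not tested. With 2 libraries per condition, changes as small as those measured here could not be told from the spread between libraries.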
